A study of Caenorhabditis elegans with 9 samples.

Results

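The 3 catalase genes and the 5 superoxide dismutase genes of Caenorhabditis elegans were followed in intestines of worms raised on 3 concentrations of heme. The genes were taken by name, ctl-1, ctl-2 and ctl-3 for the catalases and sod-1 to sod-5 for the dismutases, and make 8 of the 21776 genes in the deposited count table. All libraries came from adults of the wild-type strain N2, with no other allele in any group. Synchronized first-stage larvae had been kept for 1 generation (4 days) at 20 °C in the liquid medium mCeHR2 with 2, 20 or 400 µM heme. Each library pooled the intestines of 3 worms, whose RNA was reverse transcribed with SMARTScribe and amplified by PCR, and each concentration had 3 libraries. The labels do not say whether those 3 were grown in separate cultures. A p-value here therefore measures the spread between libraries, which may be technical.

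Superoxide dismutases turn superoxide into hydrogen peroxide and oxygen, and catalases turn hydrogen peroxide into water and oxygen. The catalytic centre of a catalase is a heme, which C. elegans cannot make and must take from its food, mostly through the intestine. Dismutases carry no heme: SOD-1, SOD-4 and SOD-5 use copper and zinc, and SOD-2 and SOD-3 use manganese. In C. elegans, several of these genes are known targets of DAF-16, the FOXO transcription factor downstream of insulin signalling.

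The libraries held 44385011 to 72960600 counts, of which ribosomal RNA took 2.30 to 42.0%, and libraries differed within a concentration in ways the labels do not explain. The labelled tissue was borne out by level. The 13 intestine markers summed to 19500 to 318300 normalised CPM (counts per 1000000 counts of the TMM-scaled library), and no other marker list exceeded 7444 in a library. The medians were 24.4 for elt-2 and 1256 for vha-6. All 13 intestine markers were detected in every library, but so were all 10 body wall muscle markers, so detection alone does not mark the tissue. Replicate 2 at 20 µM stood apart in the yolk protein gene vit-2, at 457 normalised CPM there and at 14330 to 220600 in the other 8 libraries. It also had the highest sum of the 12 pharynx markers, at 1250 normalised CPM. Of these markers, 11 were detected there and 11 in replicate 1 at 20 µM. Pharynx markers summed to 698 and 19.02 in the other 20 µM libraries, to 1.48 to 7.15 at 2 µM, where phat-1 to phat-5 and marg-1 had no count, and to 6.14 to 141 at 400 µM. Sperm markers summed to 751 to 766 normalised CPM at 2 µM, 42.9 to 215 at 20 µM and 876 to 7444 at 400 µM, and oocyte and germline markers to 106.5 to 190, 34.0 to 194 and 813 to 3056 in the same order. Replicate 1 at 2 µM stood apart from its group in body wall muscle markers (2543 against 87.2 and 95.55 normalised CPM) and hypodermis markers (6934 against 174 in each of the others). The part of these markers in the results was not tested. Replicates 2 and 3 at 2 µM were nearly the same library, with a chi-square per gene of 13.5 while the other 8 pairs of a shared concentration ranged from 491 to 6103. They differed by more than counting noise and were kept as 2 libraries, so the spread at 2 µM may be understated. In bulk tissue such as this, fewer cells of a type and less RNA per cell cannot be told apart.

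The 3 pairwise comparisons overlap in their samples, since each shares libraries with the other two. The filter on low counts passed 7 of the 8 genes, all but sod-5. None of the 7 reached an adjusted p under 0.05 in any comparison in edgeR's quasi-likelihood test with Benjamini-Hochberg adjustment over 13434 genes. For 2 against 20 µM heme, 0.0744% of all genes tested were called, for 400 against 20 µM 0.551%, and for 2 against 400 µM 0.104%, so few calls would be found among 7 genes at that rate. An unadjusted p under 0.05 was found for 3 of the 7 between 2 and 20 µM, for 0 between 400 and 20 µM and for 2 between 2 and 400 µM. The corresponding shares of all genes tested were 13.4, 18.5 and 10.6%. The libraries of both concentrations did not overlap for 4 of the 7 genes between 2 and 20 µM, for 1 between 400 and 20 µM and for 3 between 2 and 400 µM, against 17.1, 24.1 and 28.4% of all genes tested. DESeq2's Wald test called 3, 0 and 1 of the 7 genes in the same comparisons, where it called 7.45, 13.2 and 4.86% of the genes it gave an adjusted p. It gave none for sod-3. limma-voom with sample weights called 0, 0 and 2 of the 7, beside 1.88, 0 and 27.3% of all genes tested, so its 2 calls of 7 stood at about the share over all genes. The median log2 fold change of the 7 was −0.78, −0.46 and −0.0003, beside 0.12, −0.03 and 0.02 over all genes tested.

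The catalase genes stood lower at 2 µM than at 20 µM heme. They lie side by side on the minus strand of chromosome II (WBcel235), ctl-2 at 14299556 to 14302027, ctl-1 at 14303568 to 14306260 and ctl-3 at 14307798 to 14310779, with 1540 and 1537 bp between neighbours. How reads that match more than one gene were assigned is not given in the sources used here, so how counts divide among these related copies is uncertain.

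CTL-2 is the peroxisomal catalase. Its gene stood at 146, 202 and 191 normalised CPM in replicates 1 to 3 at 2 µM, at 475, 553 and 517 at 20 µM, and at 281, 454 and 389 at 400 µM. The groups did not overlap in any comparison: all 3 libraries at 2 µM lay lowest, those at 400 µM in between and those at 20 µM highest. The means were 180 ± 29.8, 515 ± 38.6 and 375 ± 87.4 (SD, n = 3). The log2 fold change of ctl-2 between 2 and 20 µM was −1.52 (SE 0.39, 95% interval −2.40 to −0.64), a level 2.87-fold higher at 20 µM, with an adjusted p of 0.151 in edgeR's quasi-likelihood test. Between 2 and 400 µM it was −1.06 (SE 0.38, interval −1.93 to −0.20, edgeR adjusted p = 0.405), and between 400 and 20 µM it was −0.46 (SE 0.38, interval −1.32 to 0.40, edgeR adjusted p = 0.559). DESeq2 called ctl-2 lower at 2 µM than at 20 µM (adjusted p = 5.94e-07) and lower than at 400 µM (adjusted p = 0.00101). For 2 against 400 µM limma-voom called it too (adjusted p = 0.00574), while for 2 against 20 µM its adjusted p was 0.0661.

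The gene ctl-3 encodes a further catalase. It stood at 93.1, 114 and 143 normalised CPM at 2 µM, at 243, 316 and 471 at 20 µM, and at 136, 245 and 217 at 400 µM. All libraries at 2 µM lay below all at 20 µM, while those at 400 µM overlapped both other groups. The log2 fold change of ctl-3 between 2 and 20 µM was −1.56 (SE 0.44, interval −2.55 to −0.56), with an adjusted p of 0.192 in edgeR's quasi-likelihood test and of 0.00201 in DESeq2. Between 400 and 20 µM it was −0.78 (interval −1.76 to 0.19, edgeR adjusted p = 0.362), and between 2 and 400 µM it was −0.77 (interval −1.75 to 0.21, edgeR adjusted p = 0.600). The ctl-3 values of 243, 316 and 471 at 20 µM came from libraries with 698, 1250 and 19.02 normalised CPM of pharynx markers, whose part in the result was not tested.

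CTL-1 is the cytosolic catalase. Its gene stood at 69.1, 126 and 103 normalised CPM at 2 µM, at 164, 140.4 and 208 at 20 µM, and at 83.2, 145 and 129 at 400 µM. The libraries at 2 and 20 µM did not overlap, and those at 400 µM overlapped both. Its log2 fold change was −0.78 between 2 and 20 µM (SE 0.41, interval −1.71 to 0.15, edgeR adjusted p = 0.441), beside −1.52 for ctl-2 and −1.56 for ctl-3. It was −0.52 between 400 and 20 µM (interval −1.45 to 0.41, edgeR adjusted p = 0.535) and −0.26 between 2 and 400 µM (interval −1.18 to 0.67, edgeR adjusted p = 0.905). No tool run called ctl-1 in any comparison.

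**Figure D1:**
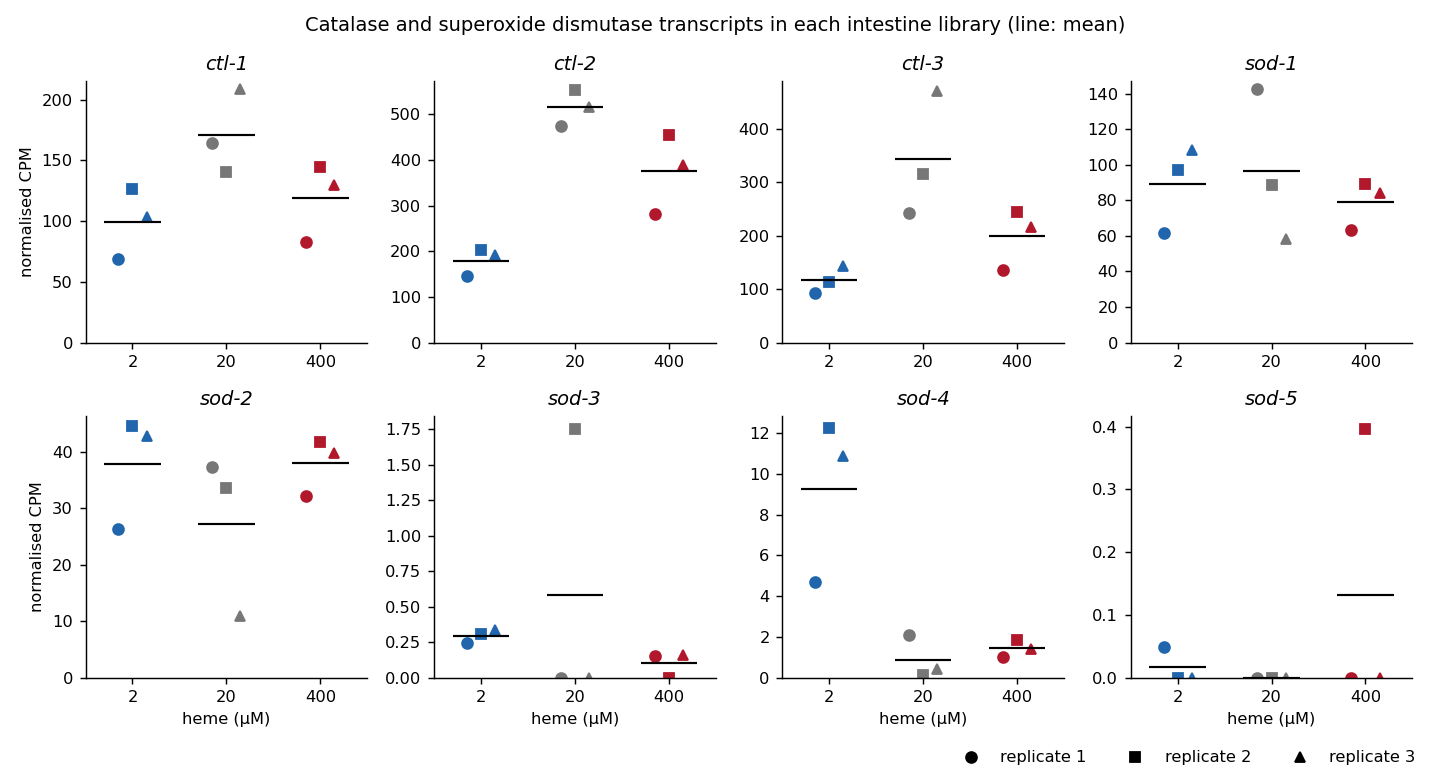
Normalised CPM (vertical axis, each panel on its own scale from 0) of the 8 genes in the 9 libraries, against heme concentration in µM; symbols are replicates and lines are means. All 3 libraries at 2 µM lie below all 3 at 20 µM for ctl-1, ctl-2 and ctl-3 and above them for sod-4.

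**Figure D2:**
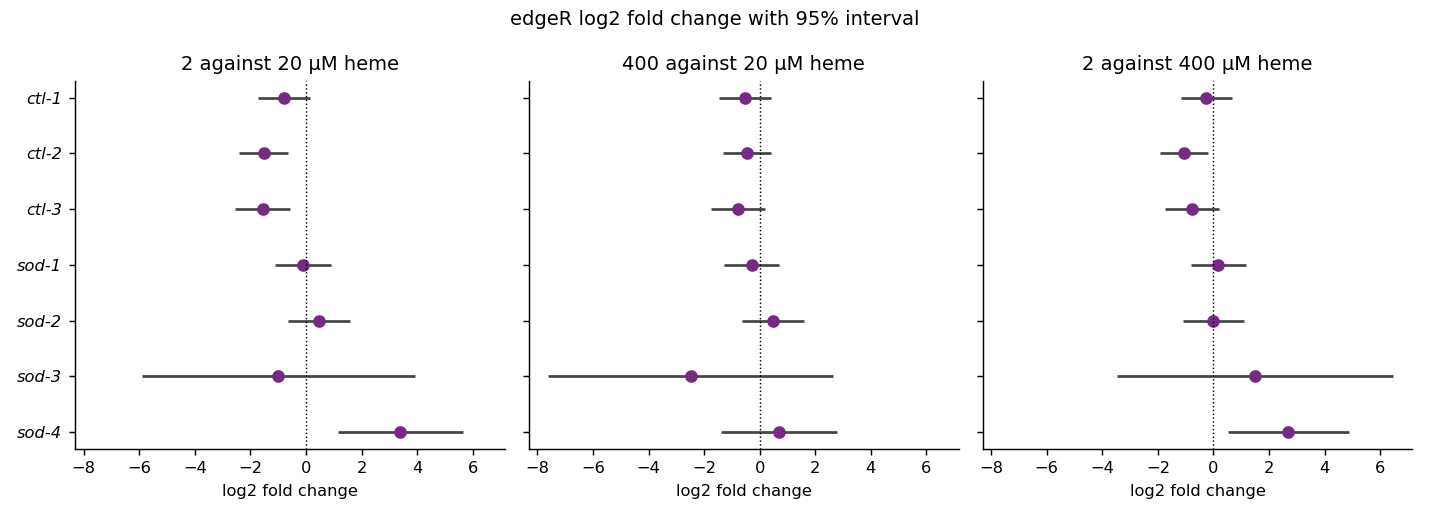
Log2 fold changes (horizontal axis) of the 7 genes tested by edgeR in the 3 pairwise comparisons, with points for the estimates and bars for 95% intervals. Between 2 and 20 µM the intervals of ctl-2, ctl-3 and sod-4 exclude 0, between 400 and 20 µM none does, and between 2 and 400 µM those of ctl-2 and sod-4 do.

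The plot of log2 fold changes shows how wide the intervals were beside the differences. A 95% interval that excludes 0 there corresponds to an unadjusted p under 0.05 and not to a call over all genes.

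Since the division of reads among the 3 copies is uncertain, their counts were also summed. The sum was 308, 442 and 438 normalised CPM at 2 µM, 883, 1009 and 1196 at 20 µM, against 500.3, 843 and 735 at 400 µM. In normalised CPM the groups of the sum did not overlap in any comparison, and its order was that of ctl-2. The authors' FPKM are scaled by gene length and library total. There the libraries at 400 µM lay within the range at 20 µM for each of the 3 genes. The separation of 400 from 20 µM thus rests on the scaling. Fitted as 1 row in place of 3, the sum had a log2 fold change of −1.38 (SE 0.42) between 2 and 20 µM, −0.57 (SE 0.41) between 400 and 20 µM and −0.81 (SE 0.41) between 2 and 400 µM.

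The mix of catalase counts differed as well. Within a library, the count of ctl-2 was 2.11, 1.60 and 1.85 times that of ctl-1 at 2 µM, 2.90, 3.94 and 2.48 times at 20 µM, against 3.38, 3.14 and 3.005 times at 400 µM. The ratio of ctl-3 to ctl-1 was 1.35, 0.901 and 1.39 at 2 µM, 1.48, 2.25 and 2.26 at 20 µM, against 1.64, 1.69 and 1.68 at 400 µM. For both ratios every library at 2 µM lay below every library at 20 and at 400 µM, while those at 20 and 400 µM overlapped. ctl-1 thus took 24.9 ± 3.26% of the catalase counts at 2 µM (SD, n = 3), 16.7 ± 2.45% at 20 µM and 17.1 ± 0.485% at 400 µM. A two-sided exact permutation test gave p = 0.10 for each of these 4 differences, the smallest that 3 against 3 libraries allow, and 0.18 after adjustment over the 9 ratio comparisons made. The ratio of ctl-2 to ctl-3 was 1.57, 1.78 and 1.33 at 2 µM, 1.96, 1.75 and 1.10 at 20 µM, against 2.06, 1.86 and 1.79 at 400 µM. At 2 µM it overlapped with 20 µM and lay below 400 µM, where the exact permutation p was also 0.10 (0.18 adjusted).

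**Figure D3:**
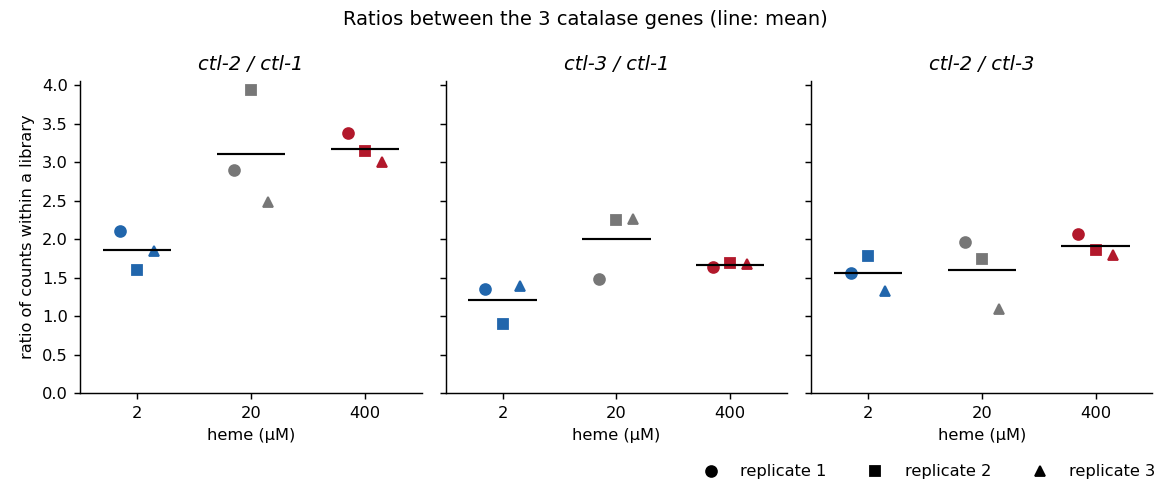
Ratios between the counts of the 3 catalase genes within each library (vertical axis, no unit, from 0) against heme concentration in µM; symbols are replicates and lines are means. For ctl-2 over ctl-1 the means are 1.85 at 2 µM, 3.10 at 20 µM and 3.17 at 400 µM, and for ctl-3 over ctl-1 all libraries at 2 µM lie lowest.

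ctl-2 shares 65 bp of exon with Y54G11A.7 on the opposite strand, and whether counting used strand is not given in the sources used here. Y54G11A.7 stood at 823, 390.1 and 395 normalised CPM at 2 µM, 133, 5.53 and 7.08 at 20 µM, against 30.8, 28.2 and 18.4 at 400 µM. Its order of concentrations was thus opposite to that of ctl-2 between 2 and 20 µM. The part of Y54G11A.7 in the counts of ctl-2 was not tested.

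Scaling bears on how far apart the catalase values are. When libraries were scaled by their totals alone, including ribosomal RNA, the median over all genes tested shifted to log2 0.56 between 2 and 20 µM and to 0.46 between 400 and 20 µM. On that scale ctl-2 stood at −1.15, ctl-3 at −1.16 and ctl-1 at −0.34 between 2 and 20 µM. Between 400 and 20 µM the values were −0.06, −0.36 and −0.05 in that order. On totals without ribosomal RNA, again without TMM, these genes stood at −1.54, −1.59 and −0.72 between 2 and 20 µM. Between 400 and 20 µM they stood at −0.50, −0.84 and −0.49, and the medians over all genes tested were 0.21 and 0.10. The sign of each catalase difference was the same under all 20 alternatives run.

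The level of sod-4 was highest at 2 µM. SOD-4 is the extracellular copper-zinc enzyme, with secreted and membrane-bound forms. Its gene lies on the minus strand of chromosome III at 9496884 to 9500375 (WBcel235) and has 4 annotated transcripts. It stood at 4.67, 12.2 and 10.9 normalised CPM at 2 µM (379, 845 and 646 counts), at 2.09, 0.113 and 0.439 at 20 µM (82, 7 and 14 counts), and at 1.03, 1.86 and 1.40 at 400 µM (81, 103 and 107 counts). Every library at 2 µM lay above every library at 20 and 400 µM, and those at 20 and 400 µM overlapped.

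The log2 fold change of sod-4 between 2 and 20 µM was 3.40 (SE 0.995, interval 1.14 to 5.65), 10.5-fold higher at 2 µM, with an adjusted p of 0.207 in edgeR's quasi-likelihood test. Replicate 1 at 20 µM held most of the counts of that group. Without that library, the log2 fold change was 5.11 and the edgeR adjusted p 0.0426, in a fit that called 1.46% of all genes. DESeq2 called sod-4 between 2 and 20 µM (adjusted p = 0.00997) and limma-voom did not (adjusted p = 0.109). Between 2 and 400 µM the log2 fold change of sod-4 was 2.70 (SE 0.96, interval 0.51 to 4.88, 6.48-fold, edgeR adjusted p = 0.400), called by limma-voom (adjusted p = 0.00110) and not by DESeq2 (adjusted p = 0.0909). Between 400 and 20 µM it was 0.70 (SE 0.92, interval −1.38 to 2.78, edgeR adjusted p = 0.733), and it ranged from 0.22 without replicate 2 to 2.40 without replicate 1 at 20 µM. Of all dismutase counts, sod-4 took 5.02, 7.92 and 6.71% at 2 µM, 1.15, 0.0908 and 0.631% at 20 µM, against 1.07, 1.40 and 1.11% at 400 µM.

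On the opposite strand, ctr-9 shares 175 bp of exon with sod-4. It stood at 23.8, 34.5 and 38.2 normalised CPM at 2 µM, 17.0, 65.6 and 79.6 at 20 µM, against 21.4, 23.9 and 26.9 at 400 µM. In replicates 2 and 3 at 20 µM, ctr-9 was highest and sod-4 lowest among the 9 libraries.

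The main enzymes of the cytosol and the mitochondrial matrix gave overlapping groups in every comparison. SOD-1, the cytosolic copper-zinc enzyme, is encoded on the minus strand of chromosome II at 6972706 to 6973887. Its gene stood at 61.7, 97.3 and 108 normalised CPM at 2 µM, at 143, 88.8 and 58.2 at 20 µM, and at 63.3, 88.9 and 84.2 at 400 µM. The libraries at 20 µM held both the highest and the lowest value of sod-1. Its log2 fold change was −0.12 between 2 and 20 µM (interval −1.12 to 0.89, edgeR adjusted p = 0.938), −0.29 between 400 and 20 µM (interval −1.30 to 0.71, edgeR adjusted p = 0.775) and 0.18 between 2 and 400 µM (interval −0.83 to 1.18, edgeR adjusted p = 0.939). The intervals leave room for a difference of about the size seen for ctl-1 in either direction. sod-1 shares 85 bp of exon with the non-coding C15F1.13 on the opposite strand, which had at most 766 counts in a library.

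SOD-2, the main mitochondrial manganese enzyme, is encoded on the plus strand of chromosome I at 8434550 to 8435807. Its gene stood at 26.4, 44.6 and 42.7 normalised CPM at 2 µM, at 37.3, 33.5 and 10.9 at 20 µM, and at 32.1, 41.7 and 39.8 at 400 µM. Replicate 3 at 20 µM was lowest for both sod-1 and sod-2, and the other 8 libraries lay between 26.4 and 44.6 for sod-2. The log2 fold change of sod-2 was 0.48 between 2 and 20 µM (interval −0.64 to 1.59, edgeR adjusted p = 0.716) and also 0.48 between 400 and 20 µM (interval −0.64 to 1.59, edgeR adjusted p = 0.653). The gene dpt-1 spans sod-2 on the opposite strand, with 21 bp of shared exon and at most 930 counts in a library.

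SOD-3, the second mitochondrial manganese enzyme and a widely used reporter of DAF-16 activity, was near the limit of detection. Its gene, on the plus strand of chromosome X at 17092753 to 17094306, had 20, 21 and 20 counts at 2 µM, 0, 109 and 0 counts at 20 µM, and 12, 0 and 12 counts at 400 µM. All 109 counts at 20 µM came from replicate 2, the library with the most pharynx marker counts and the least vit-2. Replicate 1 at 20 µM held 0 counts of sod-3, with pharynx markers at 698 normalised CPM. On the opposite strand, sod-3 shares 65 bp of exon with C08A9.3, which was not matched in the deposited counts, and 24 bp with lido-1. lido-1 had 33, 200 and 25 counts in replicates 1 to 3 at 20 µM. The part of the pharynx markers and of these 2 genes in the sod-3 counts was not tested. With all libraries, the log2 fold change of sod-3 was −0.99 between 2 and 20 µM (interval −5.89 to 3.91, edgeR adjusted p = 0.878) and −2.48 between 400 and 20 µM (interval −7.61 to 2.64, edgeR adjusted p = 0.600). Without replicate 2 the group at 20 µM held 0 counts. Taking a floor of 3 counts over the 2 remaining libraries, the mean level of sod-3 exceeded it by at least 7.02-fold at 2 µM and 2.44-fold at 400 µM. These bounds follow from leaving out the only library of that group with counts, and cover counting error only. With all libraries the mean was highest at 20 µM, at 0.5855 normalised CPM against 0.296 at 2 µM and 0.103 at 400 µM. In the fit without replicate 2 at 20 µM, edgeR's adjusted p against 20 µM was 0.376 at 2 µM and 0.356 at 400 µM. Replicate 2 at 400 µM also held 0 counts. With all libraries, the log2 fold change of sod-3 between 2 and 400 µM was 1.49 (interval −3.47 to 6.46, edgeR adjusted p = 0.893). sod-3 was the third gene whose groups did not overlap there, on a total of 61 counts against 24.

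SOD-5, the minor cytosolic copper-zinc enzyme, was close to undetected. Its gene, on the plus strand of chromosome II at 4417633 to 4419130, had 4, 0 and 0 counts at 2 µM, no count at 20 µM, and 0, 22 and 0 counts at 400 µM. It failed the filter and was not tested. A count of 0 in a library allows up to 0.0370 to 0.0940 normalised CPM (3 counts), counting error only.

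Compared per unit of length, in the authors' FPKM (counts scaled by gene length and library total), the catalases, sod-1 and sod-2 had means between 32.3 and 269 FPKM at the 3 concentrations, while sod-3 and sod-5 were near 0. Over all 9 libraries ctl-2 ranked 453 among the 21776 genes by mean FPKM, sod-1 583, ctl-3 639, ctl-1 915, sod-2 1257 and sod-4 5624. At 2 µM sod-1 led with a mean of 169 FPKM, followed by ctl-2 (123), ctl-3 (78.2), ctl-1 (68.8), sod-2 (58.7) and sod-4 (14.1). In that order sod-1 overlapped ctl-2, ctl-3 overlapped ctl-1 and ctl-1 overlapped sod-2, while ctl-2 and ctl-3, sod-2 and sod-4, and the pairs further down did not overlap.

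At 20 µM the order was ctl-2 (269 FPKM), ctl-3 (172), sod-1 (132), ctl-1 (85.6) and sod-2 (32.3), with sod-3 at 0.960, sod-4 at 0.767 and sod-5 listed at 0. Neighbours among the first 4 overlapped, while ctl-1 and sod-2 did not. At 400 µM it was ctl-2 (261 FPKM), sod-1 (153), ctl-3 (135), ctl-1 (83.5), sod-2 (60.1) and sod-4 (2.17), with sod-5 at 0.223 and sod-3 at 0.173. There ctl-2 stood clear of sod-1, and ctl-3 of ctl-1. The first place thus lay with sod-1 at 2 µM and with ctl-2 at 20 and 400 µM, and ctl-2 and sod-1 overlapped at 2 µM.

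FPKM values are scaled by library totals, without TMM. On that scale ctl-2 still did not overlap between 2 µM (101 to 140 FPKM, with the highest at 139.8) and 20 µM (179 to 398). At 400 µM, however, its libraries (219 to 288 FPKM) lay within the range at 20 µM, so the separation of these 2 groups in normalised CPM was not seen in FPKM. The groups of ctl-3 did overlap, at 63.2 to 94.4 FPKM at 2 µM and 89.1 to 222 at 20 µM. So did those of ctl-1, at 48.3 to 88.0 FPKM at 2 µM and 62.1 to 102 at 20 µM.

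**Figure D4:**
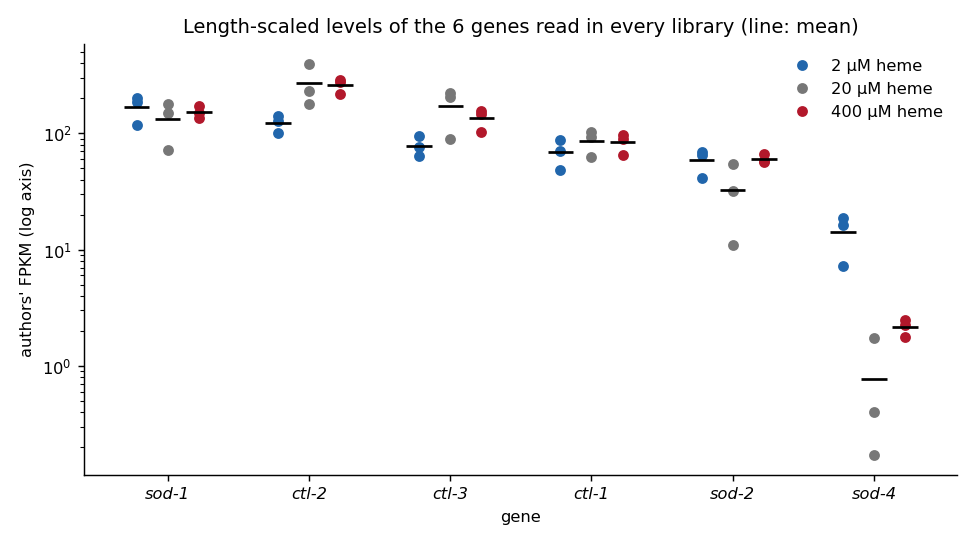
The authors' FPKM (vertical log axis) of the 6 genes with counts in all 9 libraries; points are libraries coloured by heme concentration and lines are means. sod-1, the catalases and sod-2 have means between 32.3 and 269 FPKM, while sod-4 has means of 14.1 at 2 µM, 0.767 at 20 µM and 2.17 at 400 µM.

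Profiles over the 9 libraries were compared by the root mean square difference of log2(CPM + 1), each gene centred on its own mean, as a description over libraries that share depth and tissue differences. Among the catalase and dismutase genes tested, ctl-2 and ctl-3 were the most alike pair (0.272), followed by ctl-1 with ctl-3 (0.379), ctl-1 with ctl-2 (0.404) and sod-1 with sod-2 (0.425). The profile of sod-4 lay farthest from those of ctl-3 (1.78) and ctl-2 (1.77). Of the 13427 other genes, those closest to sod-4 were gdh-1 (0.194), pes-9 (0.326) and C46C2.2 (0.328), where the root mean square of sod-4 itself was 1.19. The closest to ctl-2 were acdh-12 (0.30), C05G5.1 (0.313) and hira-1 (0.350), at 0.671 for ctl-2 itself. Those closest to ctl-3 were tes-1 (0.272), F45F2.10 (0.295) and rga-4 (0.298), and those closest to ctl-1 were ehbp-1 (0.171), ZK632.10 (0.181) and H06H21.8 (0.192). For sod-1 they were nlp-36 (0.143), sid-3 (0.154) and F42G8.10 (0.155), and for sod-2 rpb-8 (0.148), atp-5 (0.164) and ZK418.5 (0.183). The root mean square of sod-3 itself was 0.428, and its highest value by far was that of replicate 2 at 20 µM, at 1.76 normalised CPM. Its closest gene, ccm-2 (0.0682), therefore carries little information.

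Copper and manganese are the cofactors of the dismutases. Of the 6 listed genes for their transport, 5 were tested and edgeR's adjusted test called 0, although DESeq2 called 3, 1 and 2 of them and limma-voom 2, 0 and 3 in the order 2 against 20, 400 against 20 and 2 against 400 µM. The shares of all genes were 7.45, 13.2 and 4.86% for DESeq2 and 1.88, 0 and 27.3% for limma-voom. An unadjusted edgeR p under 0.05 was found for 3 higher at 2 than at 20 µM, 1 higher at 400 than at 20 µM and 2 higher at 2 than at 400 µM. The shares of all genes tested with such a p, in either direction, were 13.4, 18.5 and 10.6%. They apply equally to the unadjusted counts of the lists that follow. The list's median log2 fold change was 1.30, 0.03 and 0.59 in that order.

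The copper transporter gene chca-1, which stands in the table as F58G6.9, stood at 642, 387 and 378 normalised CPM at 2 µM, 84.4, 23.6 and 9.53 at 20 µM, against 34.3, 18.5 and 18.4 at 400 µM. All libraries of F58G6.9 at 2 µM lay above all others, with log2 fold changes of 3.58 against 20 µM (SE 0.81, edgeR adjusted p = 0.122) and 4.30 against 400 µM (SE 0.84, edgeR adjusted p = 0.123). DESeq2 and limma-voom called it in both comparisons. With replicate 1 at 20 µM left out, the highest of its group for F58G6.9, edgeR called this gene in both as well. In that fit it called 1.46 and 0.376% of all genes. No other fit leaving out 1 library called F58G6.9 between 2 and 20 µM. Between 2 and 400 µM, only that without replicate 3 at 20 µM also did.

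The copper chaperone gene cuc-1 stood at 231, 93.2 and 93.0 normalised CPM at 2 µM, 17.0, 17.9 and 3.603 at 20 µM, against 11.7, 13.5 and 10.6 at 400 µM. Its libraries at 2 µM also lay above all others, with log2 fold changes of 3.44 (SE 0.69, edgeR adjusted p = 0.107) against 20 µM and 3.54 (SE 0.69, edgeR adjusted p = 0.125) against 400 µM, again called by DESeq2 and limma-voom. The manganese and iron transporter gene smf-3 stood at 10.4, 15.3 and 18.3 normalised CPM at 2 µM, 7.51, 4.32 and 6.08 at 20 µM, against 11.3, 20.2 and 13.9 at 400 µM. It was lowest at 20 µM, with log2 fold changes of 1.30 at 2 µM (SE 0.40, edgeR adjusted p = 0.236) and 1.34 at 400 µM (SE 0.40, edgeR adjusted p = 0.154), and DESeq2 called both.

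**Figure D5:**
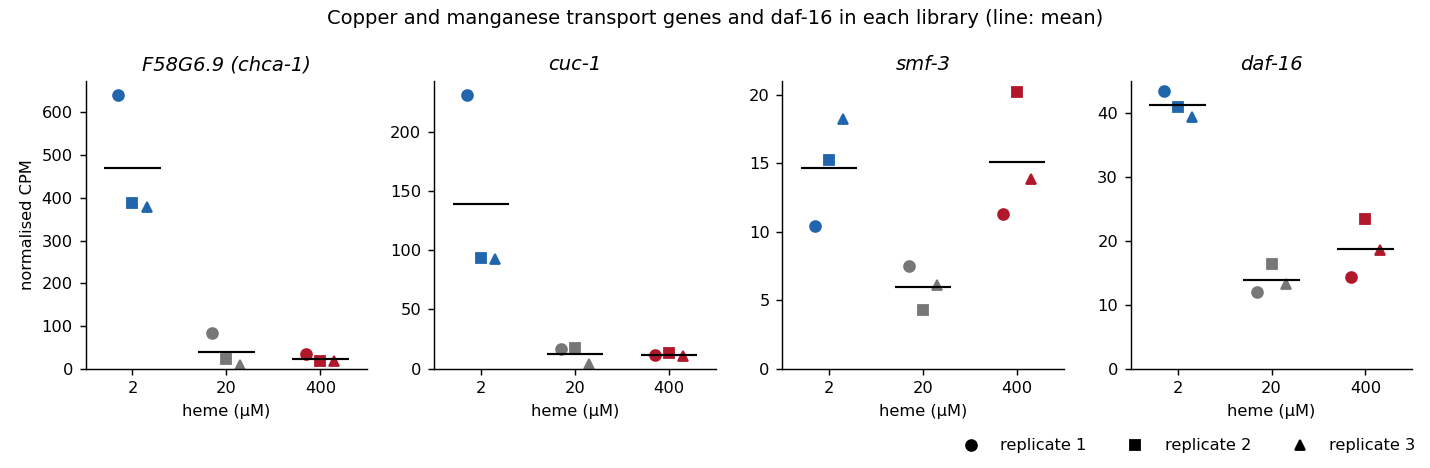
Normalised CPM (vertical axes, each from 0) of F58G6.9 (chca-1), cuc-1, smf-3 and daf-16 in the 9 libraries against heme concentration in µM; symbols are replicates and lines are means. For F58G6.9, cuc-1 and daf-16 all 3 libraries at 2 µM lie above the other 6, and for smf-3 those at 20 µM lie below the other 6.

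Insulin signalling and SKN-1 control many of these enzymes in C. elegans. Of 14 listed genes of these pathways, all tested, edgeR called 0 in each comparison, and an unadjusted p under 0.05 was found for 1 higher and 0 lower at 2 than at 20 µM, 1 higher and 1 lower at 400 than at 20 µM, and 1 higher and 2 lower at 2 than at 400 µM. DESeq2 called 1, 2 and 1 of the 14, and limma-voom called 5 for 2 against 400 µM, beside 7.45, 13.2 and 4.86% of all genes for DESeq2 and 27.3% for limma-voom. The list's median log2 fold changes were −0.31, −0.34 and 0.02.

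daf-16 stood at 43.4, 40.9 and 39.3 normalised CPM at 2 µM, 12.05, 16.3 and 13.2 at 20 µM, against 14.3, 23.4 and 18.6 at 400 µM. All libraries at 2 µM lay above all others, with log2 fold changes of 1.57 (SE 0.35, edgeR adjusted p = 0.119) against 20 µM and 1.13 (SE 0.34, edgeR adjusted p = 0.324) against 400 µM. DESeq2 called daf-16 in both comparisons and limma-voom in the second. The kinase gene akt-2 had a log2 fold change of −1.39 (SE 0.47, edgeR adjusted p = 0.185) and hcf-1, which encodes a nuclear partner that restrains DAF-16, of 1.37 (SE 0.53, edgeR adjusted p = 0.227) between 400 and 20 µM.

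Of 16 other listed DAF-16 targets, 15 were in the table and 13 were tested, and edgeR called 0. An unadjusted p under 0.05 was found for 1 higher and 1 lower at 2 than at 20 µM, 2 higher and 1 lower at 400 than at 20 µM, and 1 higher and 2 lower at 2 than at 400 µM, with list medians of −1.12, −0.43 and −0.21. DESeq2 called 1 and 3 of the 13 in the comparisons with 20 µM, and limma-voom called 2 for 2 against 20 µM and 8 for 2 against 400 µM, beside 7.45 and 13.2% of all genes for DESeq2 and 1.88 and 27.3% for limma-voom. The glyceraldehyde-3-phosphate dehydrogenase gene gpd-2 stood at 540.5, 619 and 651 normalised CPM at 2 µM, 256, 175 and 106 at 20 µM, against 242, 271 and 262 at 400 µM. Its log2 fold change was 1.75 (SE 0.43, edgeR adjusted p = 0.144) between 2 and 20 µM. The mitochondrial transhydrogenase gene nnt-1 had −2.63 (SE 0.69, edgeR adjusted p = 0.122) and the late embryogenesis abundant gene lea-1 had 1.78 (SE 0.56, edgeR adjusted p = 0.167) between 400 and 20 µM.

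The peroxisome houses CTL-2. All 11 listed peroxisome biogenesis genes were tested and edgeR called 0, while an unadjusted p under 0.05 was found for 2 lower at 2 than at 20 µM, 3 lower at 400 than at 20 µM and 1 higher at 2 than at 400 µM. DESeq2 called 1, 1 and 0 of the 11 and limma-voom 0, 0 and 1, at shares over all genes of 7.45, 13.2 and 4.86% and of 1.88, 0 and 27.3%. The list's medians were −0.20, −0.80 and 0.27. prx-6, an ATPase gene for receptor recycling, stood at 8.73, 8.45 and 9.51 normalised CPM at 2 µM, 21.1, 24.1 and 43.6 at 20 µM, against 4.69, 7.09 and 13.8 at 400 µM. It was highest at 20 µM, as ctl-2 was, with log2 fold changes of −1.73 (SE 0.49, edgeR adjusted p = 0.193) at 2 µM and −1.79 (SE 0.49, edgeR adjusted p = 0.132) at 400 µM, both called by DESeq2. At 400 µM the order differed from that of ctl-2, which stood above its level at 2 µM while prx-6 overlapped it. Its partner gene prx-1 had −1.18 (SE 0.50, edgeR adjusted p = 0.355) at 2 µM and −1.19 (SE 0.50, edgeR adjusted p = 0.248) at 400 µM, and prx-2 had −1.40 (SE 0.57, edgeR adjusted p = 0.240) at 400 µM, all against 20 µM.

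Peroxiredoxins and glutathione peroxidases remove hydrogen peroxide without heme. Of 11 listed, 10 were in the table and 9 were tested, and edgeR called 0. Those with an unadjusted p under 0.05 were 2 lower at 2 than at 20 µM, 2 lower at 400 than at 20 µM and 1 higher at 2 than at 400 µM, with list medians of −0.24, −0.96 and 0.71. DESeq2 called 1, 1 and 2 of the 9 (7.45, 13.2 and 4.86% of all genes) and limma-voom 0, 0 and 3 (1.88, 0 and 27.3% of all genes). The abundant peroxiredoxin gene prdx-2 stood at 477, 825 and 819 normalised CPM at 2 µM, 512, 380.0 and 288 at 20 µM, against 270.1, 303 and 304 at 400 µM. All its libraries at 2 µM lay above those at 400 µM and overlapped those at 20 µM, with a log2 fold change of 1.27 (SE 0.42, edgeR adjusted p = 0.371) for 2 against 400 µM that DESeq2 and limma-voom called. Of the glutathione peroxidase genes, gpx-1 had −2.17 (SE 0.61, edgeR adjusted p = 0.138) between 400 and 20 µM, which DESeq2 called. gpx-2 had −1.65 (SE 0.56, edgeR adjusted p = 0.279) between 2 and 20 µM and −1.36 (SE 0.56, edgeR adjusted p = 0.245) between 400 and 20 µM.

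Of 11 listed heme peroxidases, dual oxidases and their partners, 10 were in the table and 7 were tested, and edgeR called 0. An unadjusted p under 0.05 was found for 1 higher at 2 than at 20 µM, 2 higher at 400 than at 20 µM and 1 lower at 2 than at 400 µM, with list medians of −0.43, −0.44 and −0.17. DESeq2 called 0, 1 and 1 of the 7 and limma-voom 0, 0 and 1, each time skpo-1, while DESeq2 gave mlt-7 no adjusted p against 20 µM. These stand at shares over all genes of 7.45, 13.2 and 4.86% and of 1.88, 0 and 27.3%. The peroxidase gene skpo-1 stood at 0.813, 1.91 and 1.08 normalised CPM at 2 µM, 0, 0.193 and 0.971 at 20 µM, against 16.3, 19.1 and 11.5 at 400 µM. All its libraries at 400 µM lay above all others, and its log2 fold change was 5.35 (SE 1.28, edgeR adjusted p = 0.0991) against 20 µM, while 2 against 400 µM gave −3.62 (SE 1.17, edgeR adjusted p = 0.363). The cuticle peroxidase gene mlt-7 had 634, 68 and 57 counts at 2 µM, 0 in all 3 libraries at 20 µM, against 148, 21 and 29 at 400 µM, at least 144-fold higher at 2 µM and at least 39-fold higher at 400 µM than a floor of 3 counts over the 20 µM group. Without replicate 1 at each of these concentrations the bounds were 43.2-fold and 16.8-fold. With all libraries, edgeR's adjusted p for mlt-7 was 0.117 for 2 against 20 µM and 0.105 for 400 against 20 µM. Its highest library, replicate 1 at 2 µM, also had the highest sum of the hypodermis markers, at 6934 normalised CPM, and their part in this value was not tested. The tetraspanin gene tsp-15, a partner of the dual oxidases, had 13, 0 and 0 counts at 2 µM, 74, 85 and 0 at 20 µM, against 37, 0 and 4 at 400 µM.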

How the data were processed

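Bowtie 0.12.2 is listed as a tool and WBcel235 as the build, per the submitters' processing notes. How reads were assigned to genes, whether strand was used and what became of reads matching several genes is not given in the sources used here. The authors deposited raw counts per gene and library, and FPKM values, per the file headers. PCR amplified the cDNA, and no molecular identifiers are mentioned, so counts are of reads.

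Counts were analysed in R 4.3.3 with edgeR 4.0.16. filterByExpr kept 13434 of 21776 genes, libraries were scaled by TMM, and 1 quasi-likelihood model was fitted to all 9 libraries with 1 coefficient per heme concentration. The fit had 2.86 prior degrees of freedom and a common biological coefficient of variation of 0.961. Differences with a Benjamini-Hochberg adjusted p under 0.05 over all genes tested were called, two-sided. Log2 fold changes carry the SE and 95% interval of that fit, and levels are means ± SD of 3 libraries. The deposited FPKM served to compare levels between genes and between concentrations, with no test. The fit was checked on simulated data with less spread between libraries than these have. That check therefore does not show how the fit behaves at a coefficient of variation of 0.961. The 95% intervals cover the spread between libraries as modelled, and the floor of 3 counts covers counting error only.

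The 8 genes and the 6 pathway lists were chosen with earlier results of these data known. All 8 genes are named, and from each list any gene called and up to 3 with the smallest edgeR p in any comparison. By symbol, gpx-8, duox-2 and dod-8 of the lists were not matched and were not analysed here. Listed genes outside this rule are not named. Protein and promoter sequences were not used here. The model had no block for the replicate number, and a check did not settle whether equal numbers pair libraries.

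Alternatives were DESeq2 size factors, DESeq2 1.42.0, limma-voom with sample weights (limma 3.58.1), no filter, a filter of 10 CPM in 3 libraries, only the 2 groups compared, a replicate block, summing the 2 near-identical libraries, removing 17 ribosomal RNA genes, and leaving out each library. Scaling by library totals, with or without ribosomal RNA, was added after seeing the data.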

Additional observations from a re-analysis of the deposited data

How the results depend on the processing

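The 21 log2 fold changes of the 7 genes tested were recomputed under 20 alternatives, which gave 414 values, 392 with the sign reported. The 22 others belonged to sod-1, sod-2 and sod-3. Between 2 and 20 µM sod-1 was 0.16 with limma-voom, 0.34 on library totals and 0.0495 on totals without ribosomal RNA (−0.36 to 0.29 leaving out 1 library), and sod-3 was 1.51 with limma-voom and 1.01 with the replicate block (−1.56 to 7.16 leaving out 1 library). Between 400 and 20 µM sod-1 was 0.19 on library totals (−0.55 to 0.11 leaving out 1 library) and sod-3 spanned −3.06 to 5.76. Between 2 and 400 µM sod-1 spanned −0.0641 to 0.35, and sod-2 was 0.15 with limma-voom, 0.0459 with only the 2 groups, 0.0073 without ribosomal RNA and 0.0153 on totals without it (−0.17 to 0.17 leaving out 1 library). The upper ends for sod-3 leave out replicate 2 at 20 µM, after which that group holds 0 counts, and are no bound. The causes of the other changes were not tested.

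Of the 7 genes, DESeq2 called 3 between 2 and 20 µM and 1 between 2 and 400 µM, limma-voom called 2 between 2 and 400 µM, and leaving out 1 library gave 0 to 1 between 2 and 20 µM, where the 1 was sod-4. No other alternative called any.

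Over all genes tested, edgeR called 10 between 2 and 20 µM. The count was 933 with DESeq2, 253 with limma-voom, 18 without a filter, 26 at 10 CPM, 0 with only the 2 groups (1035 at an unadjusted p under 0.05), 2 with the replicate block, 0 with the near-identical libraries summed (1341 unadjusted), 21 on library totals, 19 on totals without ribosomal RNA and 0 to 210 leaving out 1 library. For 400 against 20 µM it was 74, and 1656, 0 (1912 unadjusted), 147, 42, 0 (1756 unadjusted), 0 (2391 unadjusted), 0 (2157 unadjusted), 296, 143 and 0 to 953 in the same order. For 2 against 400 µM it was 14, and 584, 3670, 29, 60, 284, 4, 0 (979 unadjusted), 15, 31 and 0 to 54. The largest counts with 1 library left out came without replicate 1 at 20 µM.

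The replicate block was fitted although pairing was not established: deviations of same-numbered libraries correlated at 0.207 to 0.290 for number 1, −0.0423 to 0.0227 for number 2 and 0.271 to 0.396 for number 3. As a hint from the data only, 6 of 9 libraries correlated best with their own number. The fit with the block called 0 of the 7 genes in each comparison. Low counts limit sod-3 and sod-5, at 0 to 109 a library, and sod-4 at 20 µM, at 7 to 82.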
